A study of Drosophila melanogaster with 3 samples.

Results

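Of the 5202 summits at which CG12155-eGFP was mapped in Drosophila melanogaster embryos, 1058 lay in introns close to a gene start. A summit is the base of highest signal within an enriched region. A summit was counted here when it lay inside a protein-coding gene, outside every annotated exon, and more than 500 bp and at most 5000 bp from the nearest protein-coding transcription start site (TSS). These were 20.3% of all summits (95% Wilson interval 19.3% to 21.5%). The other summits fell within 500 bp of a TSS (2932, called promoter summits), in intergenic sequence (597), in introns more than 5000 bp from a TSS (446, called deep intronic) or in exons (169).

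The mapping was by chromatin immunoprecipitation and sequencing (ChIP-seq) with an antibody against GFP. All 3 biological replicates came from 1 transgenic line, strain CG12155-GFP, in which GFP was fused to the C terminus of the CG12155 protein, and each was made from whole embryos of both sexes aged 0 to 24 hours. The promoter that drives the fusion was not given in the sources used here, no control experiment was analysed here, and in whole embryos a region bound in a few cells and one bound weakly in many cannot be told apart. The depth of each library is unknown, because the files hold no read counts. Every SD below is over 3 values, one for each replicate's own 5202 strongest regions. The tests were exact paired permutation tests by sign flips over these 3 replicates, two-sided, and the smallest p that this design allows is 0.25.

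In flies, the first intron of a gene often holds enhancers, which are DNA elements that raise transcription from a promoter at a distance. Many fly genes also have several alternative promoters, so that an intron of a long transcript can hold sequence upstream of a shorter one. Binding sites for sequence-specific factors in such elements are short, while the elements of a core promoter lie at set places around the TSS.

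A pair of short sequences recurred beside these intronic summits, each mostly in 1 direction that also prevailed at other summits. They were picked after the sequences had been examined, so their frequencies are descriptions and not tests. Motif 1 is CACTGTA and motif 2 is CACTGAGA, and they share the letters CACTG. The strongest members with motif 1 are shown first, 1 per host gene, on the strand on which the motif reads and with the motif in capitals. In each, the motif reads away from the summit, so that the summit lies to the left of the capitals. Coordinates are dm6 and bases are from the RefSeq copy of that assembly.
norpA, X:4325051-4325090, plus strand: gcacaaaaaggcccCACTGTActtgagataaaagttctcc
for, 2L:3655704-3655743, minus strand: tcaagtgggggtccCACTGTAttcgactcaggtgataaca
Raf, X:2297782-2297821, plus strand: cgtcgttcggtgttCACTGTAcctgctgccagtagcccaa
Csk, 3R:11649697-11649736, plus strand: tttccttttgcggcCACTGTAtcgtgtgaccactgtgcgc
CHES-1-like, X:7706882-7706921, minus strand: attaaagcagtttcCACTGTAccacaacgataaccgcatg
MYPT-75D, 3L:18640755-18640794, plus strand: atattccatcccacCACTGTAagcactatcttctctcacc

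The strongest members with motif 2 follow in the same form. Here the motif reads towards the summit, so that the summit lies to the right of the capitals.
ImpL2, 3L:4228292-4228332, plus strand: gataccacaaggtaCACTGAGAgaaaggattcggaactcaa
CG1943, 3R:7075754-7075794, plus strand: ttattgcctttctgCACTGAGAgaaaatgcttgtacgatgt
bves, X:21059088-21059128, plus strand: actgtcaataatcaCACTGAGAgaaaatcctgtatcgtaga
mew, X:13234229-13234269, plus strand: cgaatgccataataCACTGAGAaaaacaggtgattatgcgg
ush, 2L:520735-520775, plus strand: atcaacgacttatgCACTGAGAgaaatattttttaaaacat
CG32264, 3L:3802813-3802853, plus strand: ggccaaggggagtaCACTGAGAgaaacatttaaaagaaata
All of these 6 copies are on the plus strand of the chromosome, while the 62 inward copies counted over all members were split into 27 on the plus and 35 on the minus strand.

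Some members held motif 1 on both sides, pointing away from the summit in each direction. The strongest such member lay in the first intron of for, which encodes a cGMP-dependent protein kinase, and the next in an intron of zfh1, which encodes a zinc finger and homeodomain repressor. Each is shown on the plus strand, centred on its summit, with both strands' copies of motif 1 in capitals.
for, 2L:3655683-3655943: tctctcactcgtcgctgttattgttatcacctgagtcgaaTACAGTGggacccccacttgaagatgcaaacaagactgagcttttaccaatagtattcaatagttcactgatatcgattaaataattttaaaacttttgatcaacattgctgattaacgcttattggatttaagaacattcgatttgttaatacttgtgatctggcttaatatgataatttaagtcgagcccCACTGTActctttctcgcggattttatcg
zfh1, 3R:30781634-30781894: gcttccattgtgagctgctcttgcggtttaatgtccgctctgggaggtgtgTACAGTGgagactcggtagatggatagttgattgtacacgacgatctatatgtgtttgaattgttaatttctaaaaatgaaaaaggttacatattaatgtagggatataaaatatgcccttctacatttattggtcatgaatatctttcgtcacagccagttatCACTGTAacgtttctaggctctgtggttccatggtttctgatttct
The summit itself is the middle base of each window, between the capitals.

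The direction of motif 1 was nearly uniform. Within 20 to 140 bp of member summits, 141 copies read outward and 11 inward, so that 92.8% were outward. The 3 replicates gave 91.7%, 87.8% and 88.2% (mean 89.2% ± 2.11, SD, n = 3). In windows centred 500 bp to either side of the same summits, 40 copies read outward and 37 inward. Outward copies were also the majority at deep intronic (76.9%), intergenic (66.7%) and promoter summits (74.7%). The median outward copy at members lay 81.0 bp from the summit.

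Motif 2 had the opposite direction, with 62 copies inward and 4 outward, or 93.9% inward. Over the replicates the inward share was 93.3% ± 1.98 (SD, n = 3). In the windows 500 bp away there were 8 inward and 5 outward copies. The inward share was 94.6% at deep intronic, 96.4% at intergenic and 88.5% at promoter summits, so this direction was shared by these classes. The median inward copy at members lay 78.0 bp from the summit. Bases beside motif 2 were also uneven: the third and the fourth base after it were A in 90.3% of the 62 copies, while the base just after motif 1 was most often C, in 46.8% of 141 copies.

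**Figure D1:**
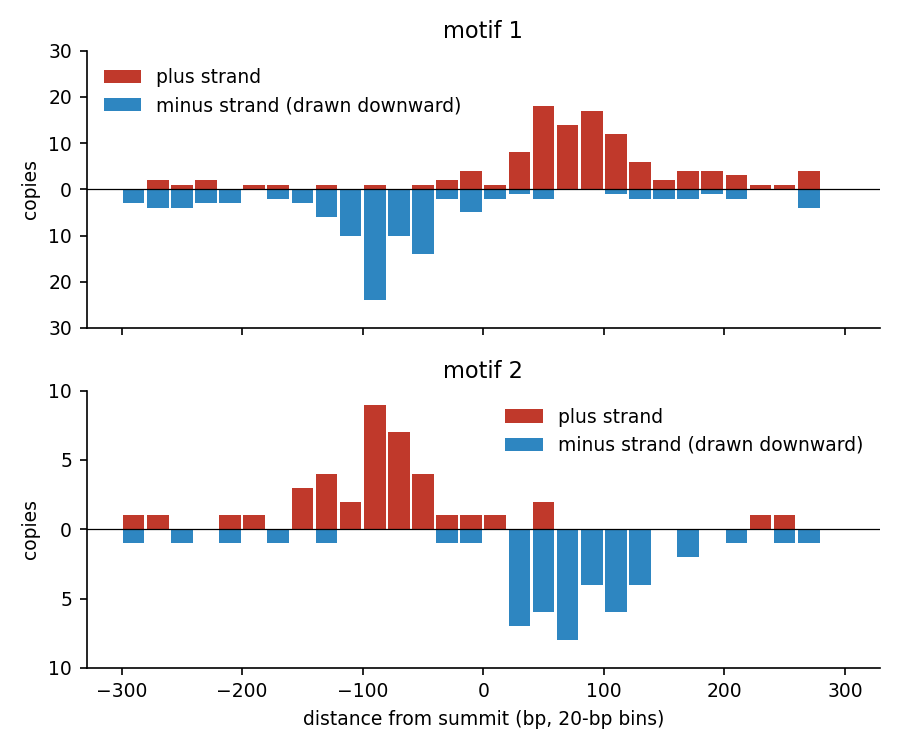
Copies of motif 1 (top) and motif 2 (bottom) around the 1058 member summits, counted in 20-bp bins, with distance from the summit in bp on the x axis, plus-strand copies drawn upward and minus-strand copies downward. Motif 1 lies mostly on the plus strand to the right and on the minus strand to the left, and motif 2 the other way round.

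Motif 1 was more frequent at members than at other summits. An outward copy was present at 120 members (11.3%), and at 10.5%, 10.6% and 10.9% of the members of replicates 1, 2 and 3. Deep intronic summits held one in 7.51% ± 0.28 of cases, intergenic summits in 5.60% ± 0.67 and promoter summits in 4.06% ± 0.10 (SD, n = 3). Members exceeded deep intronic summits by 3.15 ± 0.34 percentage points, and did so in 3 of 3 replicates. Over a grid of positions spread through all eligible intron, 1.24% had an outward copy.

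For motif 2 the order differed. An inward copy was present at 58 members (5.48%), with replicate values of 5.49%, 4.31% and 5.13%. This was 2.14 ± 0.91 points below deep intronic summits and 3.58 ± 0.68 points above promoter summits, each in 3 of 3 replicates. By distance from the TSS, motif 2 was at 4.35% of 322 members at 500 to 1000 bp, 1.51% of 199 at 1000 to 1500 bp, 4.96% of 141 at 1500 to 2000 bp, 5.33% of 169 at 2000 to 3000 bp, 8.82% of 136 at 3000 to 4000 bp and 14.3% of 91 at 4000 to 5000 bp. In the same bins motif 1 was at 10.2%, 15.6%, 9.93%, 9.47%, 12.5% and 9.89%. No difference between bins was tested. Only 2 members held both motifs in these directions.

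The 6-mers with the largest ratio of summit to flank led to the same letters. Among 530 6-mers found on either strand in at least 10% of member windows, which reach 100 bp to either side of the summit, ACTGTA stood first, at 18.7% of summits and 7.56% of flanks. The next was ACAGTG, the reverse complement of CACTGT, at 23.8% and 9.92%. Then came TTATAA (20.7% and 8.84%), CTGTAC (10.2% and 4.68%) and ATATTA (32.7% and 15.1%). The first, the second and the fourth of these overlap motif 1 or the C that often follows it, while the other two contain only A and T. At deep intronic, intergenic and promoter summits, ACTGTA was in 13.7%, 14.7% and 12.1% of windows, and ACAGTG in 22.0%, 16.9% and 16.8%. The shared core CACTG was present in 50.3% of member windows, in 30.2% of flanks and in 28.0% of all tiles of eligible intron of the same length. Deep intronic summits held it in 55.2% of windows, intergenic in 50.4% and promoter summits in 44.6%, so its frequency was shared by these classes.

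Member summits lay in a dip of GC content. The same windows at the summit had 35.4% GC and those centred 500 bp away 42.0%, while tiles of eligible intron averaged 39.9%. The replicates differed from their flanks by -6.10, -6.69 and -5.67 points (mean -6.15 ± 0.51, SD, n = 3, exact permutation p = 0.25). Flanks can reach into exons and promoters, since members may lie as near as 504 bp to a TSS. Deep intronic summits had a dip of -6.61 points and promoter summits of -8.68, so a dip was shared by these classes.

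**Figure D2:**
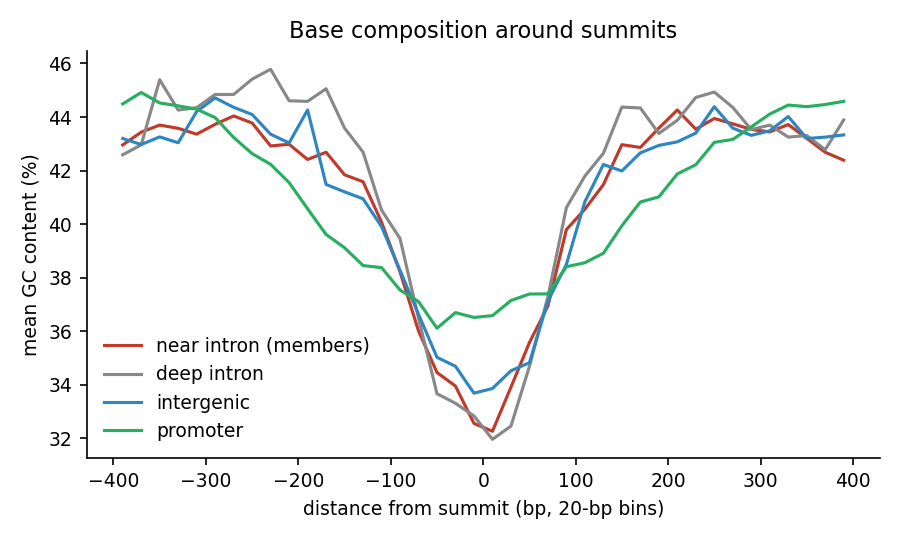
Mean GC content in percent (y axis) in 20-bp bins by distance from the summit in bp (x axis) for 1058 members, 446 deep intronic, 597 intergenic and 2932 promoter summits. The lines for members and deep intronic summits fall to their lowest near the summit, and the promoter line is broader.

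Some sequences known from fly promoters were less frequent at members than at promoter summits. The TATA box, TATAAA, was not, at 36.7% of member and 34.1% of promoter windows. The DRE, TATCGATA, which binds the promoter factor Dref, was in 0.473% of member windows and 8.77% of promoter windows. The M1BP motif, GGTCACAC, was in 0.284% and 5.80%. The core of Ohler motif 7, CANCNCTA, was in 5.29% and 19.03%. The member shares rest on 5 windows for DRE and 3 for M1BP. Deep intronic and intergenic summits held DRE in 0.224% and 1.34%, M1BP in 0.673% and 0.503%, and Ohler motif 7 in 2.69% and 6.87%. Thus shares below those of promoter summits were common to these classes. DRE and M1BP were also rare in the flanks of members, at 0.378% and 0.567%. Ohler motif 7 was in 4.35% of flanks and 4.00% of tiles, and members exceeded their flanks by 1.36 ± 0.12 points over the replicates, in 3 of 3 (exact permutation p = 0.25).

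Of the 32 listed motifs searched on both strands, 12 were more frequent at member summits than in flanks in 3 of 3 replicates, 12 were less frequent in 3 of 3 and 8 were mixed. The largest difference was for TATAAA, the TATA box, at 36.7% of summits and 21.7% of flanks (14.2 ± 1.03 points over the replicates). Deep intronic summits held it in 37.0%, intergenic in 34.7% and promoter summits in 34.1%, close to the share in members. The homeodomain core TAATTA was at 18.6% and 11.1%. In the other direction, the repeat CACACACA was at 5.10% and 10.2%, and GAGAGAG, which binds GAGA factor, at 5.39% and 8.08%. All tiles of eligible intron held TATAAA in 24.7%, TAATTA in 15.7%, CACACACA in 5.57% and GAGAGAG in 2.95%. Thus CACACACA at summits was near the tile level, and GAGAGAG at summits was above it. TATAAA and TAATTA contain only A and T, and the part of the GC dip in their share was not tested.

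Members were densest close to the gene start. There were 83.9 summits per Mb of eligible intron at 500 to 1000 bp from a TSS (replicates 76.3, 90.4 and 87.3), 50.2 at 1500 to 2000 bp (48.4, 52.3 and 50.2) and 30.1 at 4000 to 5000 bp (31.4, 34.1 and 29.1). Over the whole range the density was 50.2 ± 2.67 per Mb (SD, n = 3), against 16.6 ± 1.33 in deep introns and 190 ± 7.78 in promoters. The ratio of members to deep introns was 3.11, 2.95 and 3.01 in the 3 replicates, and the difference of 33.6 ± 1.35 per Mb exceeded its SD (exact permutation p = 0.25). The nearest members to the limits were in bark, 504 bp from a TSS, and in Pdk, 4996 bp away. The nearest summits left out lay in CG5854 at 499 bp and in Liprin-gamma at 5001 bp.

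**Figure D3:**
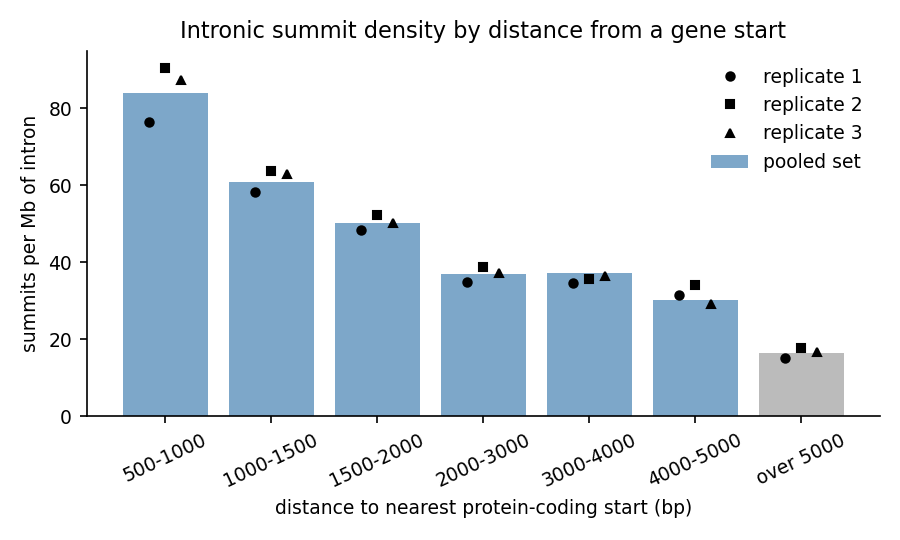
Summits per Mb of non-exonic intron (y axis) by distance to the nearest protein-coding start in bp (x axis), with bars for the pooled set and points for the 3 replicates. The density falls from 83.9 per Mb in the nearest bin to 30.1 per Mb at 4000 to 5000 bp, and is 16.3 per Mb beyond 5000 bp, drawn in grey.

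First introns held most members. A first intron of a protein-coding transcript contained 838 members (79.2%), while such introns made up 59.2% of eligible bases. The intron could belong to any gene that holds the summit, and 67 members lay in more than 1 gene. The replicates gave 79.8%, 80.1% and 79.1%, which is 20.5 ± 0.49 points above the share of bases (exact permutation p = 0.25). The difference was present at matched distance: at 1000 to 1500 bp from a TSS, first introns held 84.2 ± 4.74 summits per Mb and other introns 19.3 ± 1.76. At 4000 to 5000 bp the values were 39.0 ± 3.97 and 24.3 ± 1.97.

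Many members lay between alternative starts of their host. This was so for 591 members (55.9%), and for 39.6% of eligible bases. The nearest TSS belonged to the host for 955 members (90.3%), against 75.4% of eligible bases. Of these, 675 lay downstream of that TSS and 280 upstream of it, inside a longer transcript. The replicate means were 55.9% ± 0.98 between starts and 90.0% ± 0.42 nearest to a start of the host.

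The starts near members were themselves often occupied. The nearest TSS had a summit within 500 bp for 343 members (32.4%), and 34.0% ± 1.00 over the replicates, against 16.7% of eligible bases. Among genes, 53.2% of hosts had a promoter summit at a TSS of their own and 28.8% of other genes with eligible intron did. The difference was 28.6, 24.3 and 25.5 points in the 3 replicates (exact permutation p = 0.25). Hosts had longer introns, with a median of 5856 eligible bases against 373. Among genes with 2000 to 4000 eligible bases the shares were 51.1% of 133 hosts and 24.6% of the others, and the 4 other classes above 500 bases had hosts higher by 18.7 to 29.7 points. In the 4760 genes with at most 500 eligible bases, of which 11 were hosts, the difference was 7.25 ± 9.39 points and did not exceed its SD (exact permutation p = 0.5).

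Of 9174 protein-coding genes with eligible intron bases, 742 hosted a member, a background of 8.09%. Of these hosts, 514 had 1 member and 228 had more. Tlk, which encodes a kinase of chromatin assembly, held 13 (replicates 13, 14 and 16), at ranks 27 to 3098 of 5202. CG1677 also held 13, at ranks 608 to 4114, and 3 of its members also lay in a gene nested within it. The strongest, at rank 608, was 765 bp from the TSS of the nested gene Dok. The strongest in CG1677 alone, at rank 1246, had the TSS of brk nearest, 763 bp away. shn, a zinc finger cofactor of Dpp signalling, held 10, CHES-1-like, a forkhead gene, 9, and ush, a partner of GATA factors, 8. Tlk, CG1677 and CHES-1-like are on the X, where the member density was 57.1 per Mb. That value includes the members of these genes. It was 57.4 ± 3.09 over the replicates, against 46.8 ± 4.38 on 2L, 49.2 ± 2.66 on 2R, 47.2 ± 1.09 on 3L and 51.7 ± 2.95 on 3R.

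Members were intermediate in strength. Of the 1058, 22.7% were among the strongest 25% of all summits, against 13.0% of deep intronic, 17.9% of intergenic and 29.2% of promoter summits. Members exceeded deep intronic summits by 8.62, 11.6 and 9.20 points in the replicates (exact permutation p = 0.25). The median signal was 196.8 for members and 212.4 for promoter summits, on the authors' scale. All 3 replicates supported 767 members (72.5%), meaning that each held an overlapping region among its 5202 strongest. Support from exactly 2 replicates was seen for 203 members and from 1 for 84, and 4 members had none.

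The strongest member was in Kr-h1, which encodes a zinc finger protein induced by juvenile hormone. It ranked 7 of 5202, and 7, 10 and 5 in replicates 1, 2 and 3, and lay at 2L:6088200-6088845, 2910 bp upstream of the nearest TSS, in a first intron. The next was in ush, at rank 13 (27, 8 and 10), and its nearest TSS was that of cbt, 1367 bp away. A member in mld, a zinc finger gene needed for molting, ranked 22 (19, 35 and 29). Thus each stayed among the 35 strongest regions of every replicate.

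The 2 strongest of Tlk were at ranks 27 and 34. nej, which encodes the acetyltransferase CBP, had members at ranks 35, 117 and 223 within 1 interval, so all carry the same replicate ranks (21, 29 and 41). Trl, which encodes GAGA factor, had one at rank 64 (75, 50 and 71), 1536 bp downstream of its TSS. kis, a chromatin remodeler of the trithorax group, had one at rank 82 (64, 92 and 123). Adf1, a transcription factor gene, had one at rank 87 and cg, a zinc finger gene, one at rank 104. The HmgZ member, at rank 50, also lies in HmgD; both encode HMG-box proteins. Lk6, a kinase gene, ranked 36 and norpA, the phospholipase C of phototransduction, 118. The 20 strongest were completed by CG11050, CG32772, CG9663, CG9837, CG3726 and LPCAT, at ranks 20 to 124.

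**Figure D4:**
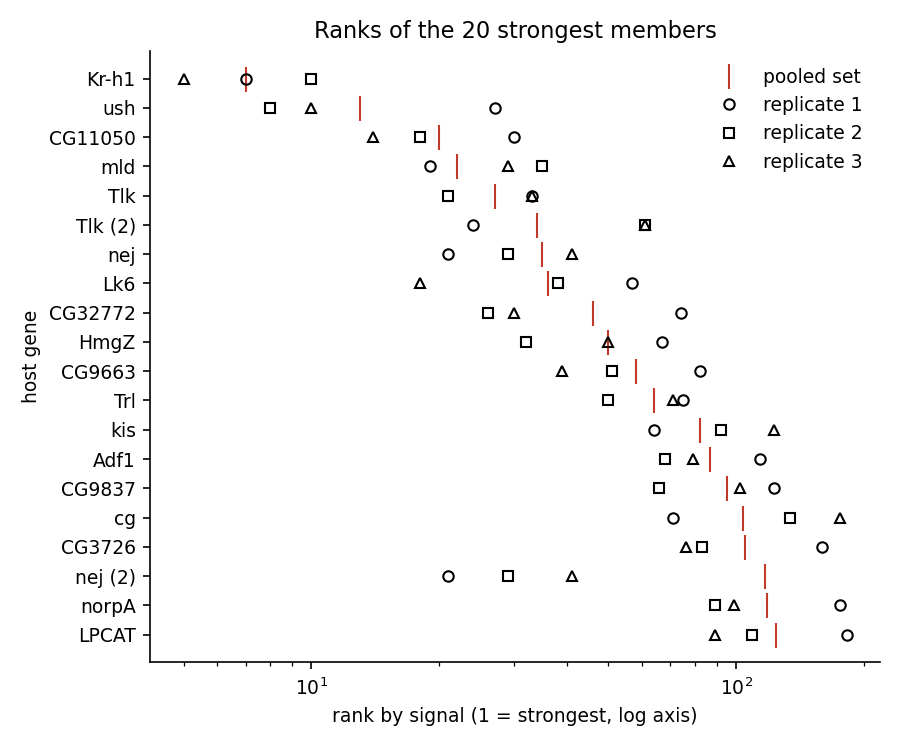
Rank by signal (x axis, log scale, 1 is strongest) of the 20 strongest members supported by all replicates, by host gene (y axis), with a red bar for the pooled set and open symbols for the 3 replicates. The Kr-h1 member ranks between 5 and 10 throughout, and both nej members drawn carry the replicate ranks of 1 shared interval.

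Gene lists differed in how densely their introns held members, beside 49.9 per Mb over all eligible intron. Density also fell with distance from a TSS, and the lists were not matched for distance or intron length. The median eligible intron per gene was 0.708 kb for chromatin regulators, 10.1 kb for BTB zinc finger genes and 5.11 kb for axon guidance genes. The part of distance and intron length in the list densities was not tested. Chromatin regulators held 13 members in 6 of 34 genes, or 200.4 per Mb (replicates 231, 216 and 170). kis held 5 of these and trx, a histone methyltransferase gene, 3, and without kis the density was 149.9 per Mb. Dpp and activin pathway genes held 17 in 7 of 14 genes (165 per Mb; 126.5, 194.5 and 185), 10 of them in shn, and 102 per Mb without it. The hosts included the receptor genes tkv, put and wit and the signal transducers Mad and Smox. GATA factors and partner held 9 (170 per Mb), 8 of them in ush, and 30.9 per Mb without ush.

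Receptor tyrosine kinase and Ras pathway genes held 18 members in 7 of 22 genes (137 per Mb; 137, 122 and 114). Raf, the MAP kinase kinase kinase, held 5, and InR, the insulin receptor, and aop, an Ets repressor, 4 each. BTB zinc finger genes held 17 in 9 of 13 genes (112 per Mb), among them Trl, br and ken. The TSS nearest to the br member was that of Mur2B. Each replicate was above 49.9 per Mb for these lists. Hosts were 31.8% of the Ras pathway list and 69.2% of the BTB list, beside 8.09% of all genes. In all genes of the size class that holds each list's median, hosts were 14.8% (2000 to 4000 bases) and 38.6% (above 8000).

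Nuclear receptor and hormone response genes held 17 members in 12 of 24 genes (66.4 per Mb), with Kr-h1, gce, a juvenile hormone receptor gene, and Eip63E the strongest. Wingless and Hedgehog genes held 11 in 6 of 23 (77.6 per Mb), with nkd, arr and dlp strongest. The TSS nearest to the strongest arr member was that of CG43192. Notch pathway genes held 6 in 2 of 15 (72.3 per Mb), 5 in mam, a coactivator of Notch, and 1 in neur, a ubiquitin ligase gene, and without mam the density was 16.7 per Mb, below the overall value.

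The other lists were below the overall density, although all but the segmentation and ribosomal protein lists had a larger share of host genes than the 8.09% of all genes. Genes in that background had a median of 0.454 kb of eligible intron, and the axon guidance, ion channel, muscle and homeotic lists 4.26 to 5.14 kb. Of all 951 genes with 4000 to 8000 eligible bases, 21.8% were hosts, so the shares of these lists were near that of genes with similar intron length. Axon guidance and adhesion genes held 12 in 6 of 30, or 20% of genes (28.9 per Mb; 33.7, 31.3 and 28.9), 5 of them in kirre. The strongest in kirre also lay in CG32795, whose TSS was the nearest. Ion channel and synapse genes held 3 in 3 of 20, or 15% (17.6 per Mb), in elav, which encodes a neuronal RNA-binding protein, brp, a scaffold of the synaptic active zone, and Shab, a potassium channel. The Shab member, at rank 4817, was supported by 1 replicate, and its nearest TSS was that of CG9970. The brp member was supported by 2 replicates. Muscle genes held 4 in 4 of 20, or 20% (31.1 per Mb), including Mhc, rols and Mef2. The Mhc member lay in intron 16, and its nearest TSS was that of Cyt-b5-r. Homeotic genes held 3 in 2 of 8, or 25% (40.9 per Mb in each replicate), in Abd-B and Antp. Segmentation genes held 2 in 1 of 18, or 5.56% (33.8 per Mb), both in cnc. These counts are small, as are those of the GATA and Notch lists, and no list was tested against the overall density. The 49 cytoplasmic ribosomal protein genes with eligible bases held 0, but their introns add up to 13.3 kb, and 3 members there would already give 226 per Mb.

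**Figure D5:**
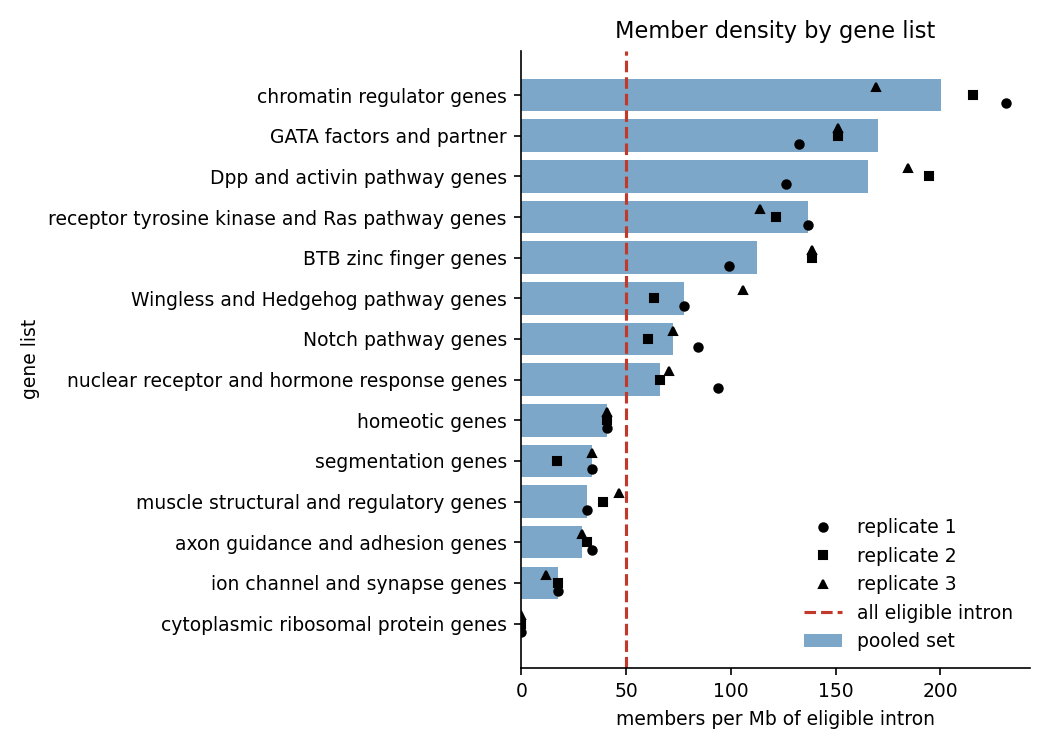
Members per Mb of eligible intron (x axis) for 14 gene lists (y axis), with bars for the pooled set, points for the 3 replicates and a dashed line at the 49.9 per Mb of all eligible intron. In the pooled set chromatin regulators are highest at 200.4 per Mb, while in replicate 3 Dpp and activin genes (185) are above them (170), and ribosomal protein genes are at 0.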

How the data were processed

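Peak lists on dm6 were used for 3 biological replicates, their pool, and the optimal set that passed the irreproducible discovery rate, per the notes that accompany the deposited files. The deposited signal of a region comes from the authors' caller and compares it with a control. Its scale is not stated, and it was used here for ranks within 1 list only. For aligner, caller and settings, the names were not given in the sources used here. Chromatin was sonicated to 200 to 800 bp, per the labels.

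Genes, exons and 19252 TSS positions of 13945 protein-coding genes were taken from Ensembl release 115. Python 3.11.15, numpy 2.4.6, pandas 2.3.3 and scipy 1.17.1 were used. Support was an overlap of 1 bp or more. Eligible intron is every base that meets the rule for members, 21.2 Mb in all, and was also sampled every 50 bp. Wilson intervals cover counting error only. The scripts for motif direction and 6-mers were tested on simulated data. Named genes were the 20 strongest members supported by all replicates, the 5 genes with most members, up to 3 hosts per list and the 5 leading 6-mers. Members, gene lists and motifs were chosen with earlier results of these data known, and motifs 1 and 2 after their values were seen. No single gene was found for 4 symbols of the lists. A gene list, and a gene of another list, are not reported here. Alternatives were stricter sets, other limits, exons, windows and flanks, and leaving out each replicate. The dm3 lists were not used here.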

Additional observations from a re-analysis of the deposited data

How the results depend on the processing

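The results recomputed were the share, density ratio, first intron excess, strength, support, GC, TATAAA, promoter and host values and the shares of motifs 1 and 2, and none of these changed direction. List and chromosome densities, the other motifs and comparisons of motifs 1 and 2 between classes were not recomputed. No pairing of groups by replicate number was possible because there is 1 group. With the strongest 50% of summits, the density ratio to deep introns was 3.97 (3.06 as reported), the first intron excess 19.2 points, the promoter summit difference 21.2 points (24.4), support by all replicates 98.5% (72.5%) and the number of hosts 421 (742). With exons of protein-coding genes only, the density ratio was 3.21. An inner limit of 1000 bp gave a member share of 14.1% (20.3%), a density ratio of 2.60 and a difference from deep introns in the share among the strongest 25% of 7.24 points (9.68). An outer limit of 2000 bp gave a share of 12.7%, a first intron excess of 18.9, a difference in that share of 12.7 and a promoter difference of 26.9 points. Flanks 300 bp away gave a GC difference of -8.06 points (-6.64) and a TATAAA difference of 17.3 (14.98), and windows reaching 50 bp to either side gave -8.43 and 10.1. Promoter windows of 200 and 1000 bp gave promoter differences of 13.4 and 41.4 points. The 1000 bp window also takes in the 322 members at 500 to 1000 bp from a TSS. A member can then count as the promoter summit of its own host, so the value of 41.4 is partly fixed by the window. Support with 50% of the interval covered was 67.6%. Leaving out each replicate gave density ratios of 3.28 to 3.42, first intron excesses of 20.4 to 20.9 points and support by both others of 77.8% to 80.3%. These 3 settings keep only summits supported by both other replicates, so they are also stricter sets. TATAAA was taken as the motif to follow after its value was seen. Apart from the counting of members in the 1000 bp promoter window, the cause of these shifts was not tested. Across the settings, the share of members with motif 1 outward was 11.3% to 13.2%, and with motif 2 inward 3.63% to 6.20%. Depth is unknown, so weak regions missed in a replicate cannot be told from unbound ones.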

Other observations

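The members with motif 1 outward were among the strongest 25% in 32.5% of 120 cases, and those with neither motif in 21.7% of 882. Those with motif 2 inward were among them in 18.97% of 58 cases. These are descriptions of chosen sets, without a test. The nearest TSS had a promoter summit for 33.3% of members with motif 1 and for 18.97% of those with motif 2. Their median distances to a TSS were 1409 bp and 2482 bp.

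Copies of motif 1 were outward on both sides of 20 members. Motif 2 was inward on both sides of 4 members. In the fourth chromosome's 0.200 Mb of eligible intron there was 1 member, which is 5.01 per Mb.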
